A study of Mus musculus with 21 samples.

Results

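The 9 genes described here, Klf3, Klf6, Klf7, Klf9, Klf10, Klf11, Klf13, Klf15 and Klf16, encode Krüppel-like factors other than the pluripotency factors Klf2, Klf4 and Klf5. They were chosen by their symbols from a table of 20900 genes, on a rule that names an early fall of Klf6 and Klf15, and all 9 passed the filter on low values, which kept 14666 genes. The values of every gene at 2 h, and those of Klf6 and Klf15 against untreated cells or in any comparison that uses 4 h libraries, are therefore given as a description with no test. The libraries came from E14 cells, a mouse embryonic stem cell line of the 129 strain grown in serum with leukaemia inhibitory factor, and held poly(A) RNA. Untreated cells (0 h) were compared with cells given 1 µM BMH-21 for 2, 4 or 8 h and with cells given 1 µM CX-5461 for 2, 4 or 8 h, with 3 libraries in each of the 7 groups and 21 in all. Both are small molecules that block RNA polymerase I, which makes the precursor of ribosomal RNA, and no genotype differed between the groups. The same 3 untreated libraries served as control for both inhibitors, and no library was taken after 2, 4 or 8 h in medium without inhibitor. All cells were of 1 line and the labels do not say whether replicates were separate cultures, so p-values measure the spread between these libraries, which may be technical.

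Krüppel-like factors bind GC-rich and CACCC-containing DNA through zinc fingers at their carboxyl end. Their other regions recruit cofactors, which divides the family into groups with different actions. Klf6 and Klf7 belong to the group that mostly activates transcription, Klf3 recruits the corepressor CtBP, and Klf9, Klf10, Klf11, Klf13 and Klf16 carry a domain that binds the Sin3 corepressor. Klf15 stands outside these groups and is known for its part in glucose, amino acid and lipid metabolism. In embryonic stem cells Klf2, Klf4 and Klf5 help to maintain self-renewal.

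Because the factors bind GC boxes and CACCC boxes that also occur in promoters of their own family, 4 promoters are shown: those of Klf15 and Klf6, which the selection names, and of Klf7 and Klf13, which lay on opposite sides of their untreated levels after 8 h of BMH-21. Each runs 5′ to 3′ from 250 bases before to 50 bases after the annotated start, from RefSeq on GRCm38.p6. Capitals mark GC boxes (GGGCGG, or CCGCCC on the other strand) and CACCC boxes (CACCC, or GGGTG on the other strand), which overlap at 1 place in Klf13.
Klf15 promoter (chr6:90462326-90462625, plus strand): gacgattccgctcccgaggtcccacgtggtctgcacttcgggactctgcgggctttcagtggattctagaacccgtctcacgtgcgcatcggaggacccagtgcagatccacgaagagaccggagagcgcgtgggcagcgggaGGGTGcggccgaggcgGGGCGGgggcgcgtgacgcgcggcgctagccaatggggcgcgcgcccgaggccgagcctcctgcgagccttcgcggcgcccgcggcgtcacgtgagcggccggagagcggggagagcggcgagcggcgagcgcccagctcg
Klf6 promoter (chr13:5861239-5861538, plus strand): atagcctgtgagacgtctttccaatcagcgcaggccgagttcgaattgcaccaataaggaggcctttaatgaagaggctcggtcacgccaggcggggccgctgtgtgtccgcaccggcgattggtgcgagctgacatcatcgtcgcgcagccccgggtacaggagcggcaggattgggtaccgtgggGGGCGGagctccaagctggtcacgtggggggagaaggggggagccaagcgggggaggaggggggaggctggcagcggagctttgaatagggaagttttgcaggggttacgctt
Klf7 promoter (chr1:64121340-64121639, minus strand): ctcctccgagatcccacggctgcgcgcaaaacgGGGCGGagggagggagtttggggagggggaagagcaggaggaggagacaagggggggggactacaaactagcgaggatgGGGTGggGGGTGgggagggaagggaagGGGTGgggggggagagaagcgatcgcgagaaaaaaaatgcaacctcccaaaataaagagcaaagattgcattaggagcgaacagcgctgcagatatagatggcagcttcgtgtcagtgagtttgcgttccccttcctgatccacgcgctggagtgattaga
Klf13 promoter (chr7:63938866-63939165, minus strand): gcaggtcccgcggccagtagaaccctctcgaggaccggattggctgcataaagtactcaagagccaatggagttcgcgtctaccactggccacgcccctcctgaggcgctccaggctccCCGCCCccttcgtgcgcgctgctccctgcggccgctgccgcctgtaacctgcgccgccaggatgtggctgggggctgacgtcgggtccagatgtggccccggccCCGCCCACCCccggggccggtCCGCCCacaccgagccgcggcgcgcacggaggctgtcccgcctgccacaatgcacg

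RefSeq promoters were matched for 7 of the 9 genes, all but Klf10 and Klf16. A GC box was present in 6 of the 7, against 35.7% of 32851 promoters of the same length, and a CACCC box in 5 of the 7, against 57.5%. Klf3 held 6 GC boxes and 5 CACCC boxes, whereas Klf9 had 0 GC boxes and Klf11 and Klf6 had 0 CACCC boxes. The CCAAT box (CCAAT, or its reverse complement) was found in 5 of the 7 (37.4% of all promoters), with 4 matches in Klf6. The E-box CACGTG was found in 3 of the 7 (7.15% of all promoters): Klf15 held 3 of them and Klf6 and Klf11 held 1 each. No promoter of the 7 held TATAAA (13.6% of all) or the cAMP response element TGACGTCA (1.79%). The 7 promoters were GC-rich, from 58.3% in Klf7 to 77.7% in Klf11. These are matches of letters in 1 window per gene, and no binding was measured.

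In untreated cells the genes differed widely in level. Levels were corrected for the joined length of all annotated exons (log2 value minus log2 of kilobases), which may exceed that of the transcripts present. On this scale, from the deposited log2 values, Klf9 was highest at 5.18 per kilobase. Klf16 followed at 4.75 and Klf10 at 4.58. Klf6 stood at 3.90, Klf13 at 3.34, Klf3 at 2.95 and Klf11 at 2.65. The lowest were Klf15 at 2.18 and Klf7 at -0.34, and Klf7 and Klf15 also had the fewest reads of the 9 genes in untreated libraries, 277 to 310 and 581 to 605. All other comparisons below are within a gene.

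Reads recovered from the deposited values ran from 46604397 to 62812641 per library, and at this depth 3 reads of a gene, the upper limit that a count of 0 allows, lay between -4.63 and -3.59 on the log2 scale, below every value of the 9 genes. The deposited values carry a scaling factor per library, 1.209 to 1.375 in BMH-21 8 h libraries and 0.888 to 0.943 in CX-5461 8 h libraries, while median-ratio factors computed from the same genes ran from 0.941 to 1.107 over all libraries. Because of this the median gene of the table moved at 8 h, by -0.40 in BMH-21 and by 0.11 in CX-5461. Many values at 8 h are therefore also given after centring, in which each library's median gene is set to a common level. Those at 8 h with no centred value beside them are on the deposited scale only. Over all genes, the centred 8 h differences from untreated cells still had medians of -0.19 for BMH-21 and -0.11 for CX-5461. Centred values at 8 h are to be read against these medians. Embryonic stem cell markers (Pou5f1, Sox2, Nanog, Esrrb, Zfp42, Tdgf1 and Dppa5a) were above 0 on the log2 scale in every library for 7 of 7 genes, and their summed level was 12.45 to 12.64 (log2) in untreated, 11.65 to 11.88 in BMH-21 4 h, 11.66 to 11.92 in CX-5461 4 h, 11.44 to 11.52 in BMH-21 8 h and 12.34 to 12.44 in CX-5461 8 h libraries. Of other cell types, 3 of 6 fibroblast, 3 of 5 primitive endoderm and 2 of 5 trophoblast markers were above 0 in every library. None of these markers was at 0 reads in any library: the lowest were Col3a1 (1 to 19 reads) and Dcn (3 to 23 reads). The summed fibroblast level was 5.08 to 5.25 in untreated and 5.40 to 5.65 in BMH-21 8 h libraries, the primitive endoderm level 3.35 to 3.66 and 3.93 to 4.19, and the trophoblast level 6.26 to 6.38 and 6.79 to 7.08; in CX-5461 8 h libraries the 3 sums were 5.64 to 5.64, 3.91 to 4.00 and 6.85 to 7.08. At 4 h the 3 sums were 5.53 to 5.82, 4.17 to 4.50 and 5.60 to 5.95 in BMH-21 and 5.20 to 5.29, 3.76 to 4.06 and 5.45 to 5.77 in CX-5461, so the trophoblast sum was below its untreated range at 4 h and above it at 8 h. The sums weigh the highest genes most. That of the trophoblast list was mostly Tfap2c, with an untreated mean of 6.2, where Eomes was next at 2.18. Single markers went both ways from untreated to BMH-21 8 h libraries. By their means, Col1a1 (3.15 to 5.01), Col1a2 and Pdgfrb were higher, but Thy1 (4.48 to 3.07), Col3a1 and Dcn lower. Pdgfra (1.15 to 3.15), Gata6 and Sox17 were higher, but Gata4 and Sox7 lower. Tfap2c (6.2 to 6.88), Cdx2, Elf5 and Gata3 were higher, but Eomes (2.18 to 1.08) lower. The part of these markers in the results below was not tested. In these bulk samples fewer cells of a type and less RNA per cell cannot be told apart.

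**Figure D1:**
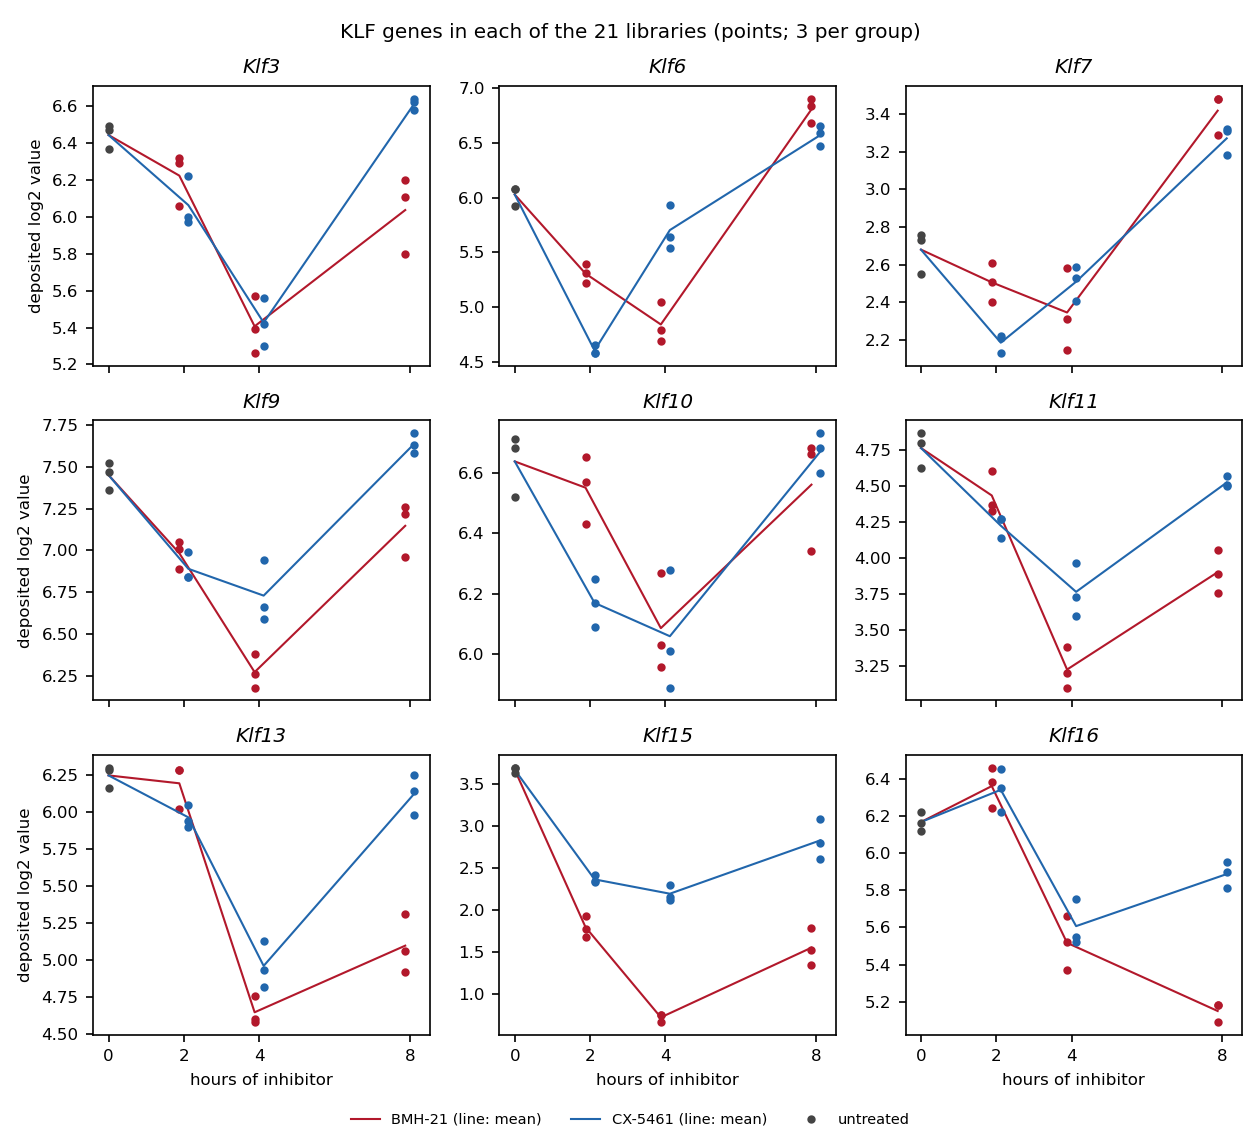
Deposited log2 value (vertical axis) of each of the 9 Krüppel-like factor genes against hours of inhibitor (horizontal axis), with 1 point per library, grey for untreated, red for BMH-21 and blue for CX-5461, and lines through the group means. Klf15 stays below its untreated values in both inhibitors, Klf6 and Klf7 dip and then pass them by 8 h, and Klf16 is the gene that is lower at 8 h than at 4 h of BMH-21.

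After 4 h of BMH-21, Klf15 was at 13.1% of its untreated level, the lowest share of the 9 genes at that time. The gene (ENSMUSG00000030087.11, chr6:90462576-90475238, plus strand) encodes a regulator of gluconeogenesis and amino acid breakdown that glucocorticoids induce in several tissues. Its deposited log2 values in the 3 untreated libraries were 3.69, 3.68 and 3.62. BMH-21 gave 1.68, 1.93 and 1.78 at 2 h, 0.67, 0.75 and 0.76 at 4 h, and 1.79, 1.35 and 1.52 at 8 h. All 9 BMH-21 libraries lay below all untreated ones, and those of 4 h below those of 2 h and 8 h. CX-5461 gave 2.42, 2.33 and 2.34 at 2 h, 2.12, 2.16 and 2.30 at 4 h, and 3.08, 2.60 and 2.80 at 8 h. These libraries too lay below every untreated one, but above every BMH-21 library of the same time. Against untreated cells the log2 differences were -1.87, -2.94 and -2.11 (SE 0.14 each) in BMH-21 (2, 4 and 8 h in turn), and -1.30, -1.47 and -0.84 (SE 0.14 each) after the same times of CX-5461. After centring the 8 h differences were -1.9 in BMH-21 and -1.05 in CX-5461. Klf15 had 581 to 605 reads per untreated library and 74 to 96 per BMH-21 4 h library, so these values keep a wide margin above 3 reads.

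Klf15 was lower in BMH-21 than in CX-5461 at 8 h, and its deposited 8 h values lay above its 4 h values in both. As a description, since the 4 h values are those of the early fall, the log2 difference between 8 h and 4 h was 0.83 (SE 0.14) in BMH-21 and 0.63 (SE 0.14) in CX-5461, and after centring 0.89 and 0.26. BMH-21 differed from CX-5461 by -1.47 (SE 0.14) at 4 h, also as a description, and by -1.28 at 8 h (SE 0.14, limma adjusted p = 3e-14; -0.85 after centring), so the BMH-21 level was 36.1% and 41.3% of the CX-5461 level. In order of level, untreated cells came first, then CX-5461 at 8 h, 2 h and 4 h, then BMH-21 at 2 h, 8 h and 4 h. On the deposited scale each neighbouring pair in that order was separated without overlap, except BMH-21 at 2 h and 8 h. After centring the CX-5461 groups overlapped, at 2.36 to 2.48 (2 h), 2.09 to 2.43 (4 h) and 2.36 to 2.74 (8 h).

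Klf6 was also low at the early times, but lay above its untreated level at 8 h of both inhibitors. The gene (ENSMUSG00000000078.7, chr13:5861482-5870394, plus strand) is an activator and a fast-responding gene in many cells exposed to growth factors or stress. Untreated libraries had log2 values of 6.08, 6.08 and 5.92. In CX-5461 the low point came at 2 h, with 4.66, 4.58 and 4.58, followed by 5.54, 5.93 and 5.64 at 4 h and 6.65, 6.47 and 6.59 at 8 h. In BMH-21 it came later, with 5.22, 5.39 and 5.31 at 2 h, 5.05, 4.69 and 4.79 at 4 h, and 6.83, 6.68 and 6.90 at 8 h. The 4 h libraries of CX-5461 thus overlapped the untreated ones, while those of BMH-21 lay below them, and all 8 h libraries of either inhibitor lay above. The log2 differences from untreated cells were -0.71, -1.18 and 0.78 (SE 0.11 each) over 2, 4 and 8 h of BMH-21, and -1.42, -0.32 and 0.54 (SE 0.11 each) over those of CX-5461. After centring the 8 h differences were 0.99 in BMH-21 and 0.33 in CX-5461.

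As a description, Klf6 at 8 h of BMH-21 was 1.96 above its 4 h level on the log2 scale, or 3.88-fold (SE 0.11), and in CX-5461 0.86, or 1.82-fold (SE 0.11). These values differed by 1.09 (SE 0.16), and by 1.53 after centring. BMH-21 differed from CX-5461 by -0.86 (SE 0.11) at 4 h, where no test is given either. At 8 h BMH-21 was higher by 0.24 (SE 0.11, limma adjusted p = 0.044). The 8 h difference was 0.66 after centring (adjusted p = 3.8e-12), whereas leaving out 1 library on the deposited scale brought it to 0.19 to 0.30. Without BMH-21 replicate 3 or CX-5461 replicate 2 its adjusted p was 0.17. Without BMH-21 replicate 1 it was 0.094, without CX-5461 replicate 3 0.073, and with no mean-variance trend 0.059.

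Klf7, the other activator of the set, was higher than in untreated cells at 8 h of both inhibitors. The gene is known for its part in neuronal development, and lies on chr1:64029447-64122282, minus strand (ENSMUSG00000025959.13). Its log2 values were 2.73, 2.76 and 2.55 in untreated libraries. After BMH-21 they were 2.40, 2.51 and 2.61 at 2 h, 2.31, 2.15 and 2.58 at 4 h, and 3.48, 3.29 and 3.48 at 8 h. After CX-5461 they were 2.21, 2.22 and 2.13 at 2 h, 2.41, 2.59 and 2.53 at 4 h, and 3.31, 3.32 and 3.18 at 8 h. At 8 h all libraries of both inhibitors lay above the untreated ones, and at 4 h the groups overlapped. Klf7 was higher than in untreated cells by 0.74 after 8 h of BMH-21 (SE 0.13, limma adjusted p = 1.6e-07) and by 0.59 after 8 h of CX-5461 (SE 0.13, adjusted p = 5.2e-05), and the CX-5461 value was 0.14 with an adjusted p of 0.21 after quantile normalization. At 4 h of BMH-21 it was lower by -0.33 (SE 0.13, adjusted p = 0.019), a call that ended after centring (-0.18, adjusted p = 0.093) and without untreated replicate 1 or 2 or BMH-21 replicate 2 (adjusted p of 0.062, 0.078 and 0.15). At 4 h of CX-5461 the difference was -0.17 with a 95% interval from -0.43 to 0.09. Klf7 at 8 h differed between inhibitors by 0.15 (interval -0.11 to 0.40) as deposited and by 0.58 (adjusted p = 1.3e-05) after centring.

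The 5 genes with a Sin3-binding domain and Klf3 all fell at 4 h and then divided. After 4 h of BMH-21, 7 of the 7 genes tested against untreated cells (the set without Klf6 and Klf15) were lower by limma and 0 were higher, where 44.9% of all genes tested were lower and 22.1% higher. Their median log2 difference was -1.04, against -0.21 over all genes. After 4 h of CX-5461, 6 of the 7 were lower and 0 higher, all but Klf7, where 51.2% of all genes were lower and 19.8% higher. Klf13 and Klf11 fell furthest at 4 h of BMH-21, by 1.60 and 1.54 on the log2 scale (adjusted p = 3.2e-27 and 1.4e-24), to 32.9% and 34.3% of the untreated level. The smallest falls among the other 4 were those of Klf10 in BMH-21 (-0.55, adjusted p = 4.3e-06) and Klf16 in CX-5461 (-0.56, adjusted p = 2.5e-06). These 6 genes remained lower at 4 h of both inhibitors after centring and with median-ratio factors. On these scales 41.5% and 38.8% of all genes were lower in BMH-21, and 45.7% and 36.5% in CX-5461.

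Klf13 (ENSMUSG00000052040.10, chr7:63886351-63938915, minus strand), which controls chemokine expression in lymphocytes, ended far apart in the inhibitors. Untreated libraries had log2 values of 6.28, 6.30 and 6.16. The values at 2 h overlapped these in BMH-21 (6.02, 6.28 and 6.28) and lay below them in CX-5461 (6.05, 5.94 and 5.90). At 4 h they were 4.76, 4.58 and 4.60 in BMH-21 and 4.82, 5.13 and 4.93 in CX-5461, all well below those of 2 h. At 8 h BMH-21 libraries had 5.31, 4.92 and 5.06, and CX-5461 libraries 6.25, 5.98 and 6.14, which again overlapped the untreated ones. Klf13 was therefore still lower than in untreated cells by -1.15 after 8 h of BMH-21 (SE 0.11, limma adjusted p = 5.8e-18). After 8 h of CX-5461 the difference was -0.13 (interval -0.35 to 0.09, adjusted p = 0.35), and -0.34 after centring (adjusted p = 5.8e-06). BMH-21 was lower than CX-5461 by -1.03 at 8 h (adjusted p = 7.4e-15), or -0.60 after centring. At 4 h that difference was -0.31 (adjusted p = 0.035), with adjusted p-values of 0.077 to 0.16 without replicate 2 or 3 of either inhibitor at 4 h, and of 4.9e-05 after centring.

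Klf16 (ENSMUSG00000035397.8, chr10:80567124-80577321, minus strand), known as a regulator of dopamine receptor genes, differed in course from the other genes of the set. Untreated libraries had 6.22, 6.16 and 6.12. At 2 h the values were slightly higher, 6.24, 6.46 and 6.38 in BMH-21 and 6.45, 6.22 and 6.35 in CX-5461, and they did not overlap the untreated ones before rounding. At 4 h they were 5.66, 5.37 and 5.52 in BMH-21 and 5.52, 5.75 and 5.55 in CX-5461, below all untreated libraries. At 8 h BMH-21 libraries had gone down further, to 5.18, 5.09 and 5.18, while CX-5461 libraries had 5.95, 5.81 and 5.90. Klf16 was the gene of the 9 that fell from 4 h to 8 h of BMH-21, by 0.37 (SE 0.11, limma adjusted p = 0.0022; fell by 0.30 after centring). In CX-5461 it was higher at 8 h than at 4 h by 0.28 (adjusted p = 0.019) as deposited, but the sign turned to -0.09 (adjusted p = 0.075) after centring. Against untreated cells Klf16 was lower by -1.02 after 8 h of BMH-21 (adjusted p = 8.5e-16) and by -0.28 after 8 h of CX-5461 (adjusted p = 0.023). The CX-5461 value moved to -0.50 after centring. Without replicate 1 or 2 of untreated cells or replicate 2 or 3 of CX-5461 it had adjusted p-values of 0.087, 0.051, 0.11 and 0.056. Outside the set some family members also went down further from 4 h to 8 h of BMH-21. Among them were Klf4 (-0.75 and -1.35 against untreated cells) and Klf8 (-1.42 and -2.36). Others, among them Klf2 and Klf5, were higher at 8 h than at 4 h.

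Klf11 and Klf10 are both induced by transforming growth factor beta in other cells, where they act as repressors of growth. Klf11 (ENSMUSG00000020653.12, chr12:24651274-24662789, plus strand) had untreated log2 values of 4.80, 4.87 and 4.63. They were 3.38, 3.20 and 3.10 at 4 h of BMH-21 and 3.60, 3.97 and 3.73 at 4 h of CX-5461, and at 8 h 4.06, 3.76 and 3.89 against 4.57, 4.50 and 4.51. No treated library of these groups reached the untreated range. Klf11 remained lower after 8 h of BMH-21 by -0.86 (SE 0.12, limma adjusted p = 3.5e-11). After 8 h of CX-5461 it was at -0.24 (adjusted p = 0.077), and at -0.45 (adjusted p = 3e-07) after centring. Klf10 (ENSMUSG00000037465.10, chr15:38291463-38300706, minus strand) had 6.71, 6.68 and 6.52 in untreated libraries, 6.68, 6.34 and 6.66 at 8 h of BMH-21 and 6.73, 6.60 and 6.68 at 8 h of CX-5461. These 3 groups overlapped. The Klf10 differences at 8 h were -0.08 (interval -0.30 to 0.14) in BMH-21 and 0.03 (interval -0.18 to 0.25) in CX-5461 as deposited. After centring they had the opposite signs, 0.13 (adjusted p = 0.0054) and -0.18 (adjusted p = 0.00042).

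Klf9 and Klf3 fell at 4 h and came back near their untreated levels by 8 h. Klf9 (ENSMUSG00000033863.2, chr19:23141226-23168134, plus strand) is a target of thyroid hormone and glucocorticoid receptors. Its untreated values were 7.52, 7.47 and 7.36. The lowest were 6.38, 6.26 and 6.18 at 4 h of BMH-21, below the 6.59, 6.94 and 6.66 of CX-5461 at 4 h. At 8 h they were 7.26, 6.96 and 7.22 in BMH-21, below the untreated range, and 7.70, 7.58 and 7.63 in CX-5461, above it. The 8 h differences from untreated cells were -0.31 in BMH-21 (limma adjusted p = 0.0059; 0.05 with median-ratio factors, 0.24 with an adjusted p of 4.7e-06 after quantile normalization, and adjusted p = 0.072 without BMH-21 replicate 2) and 0.19 in CX-5461 (adjusted p = 0.13; -0.03 after centring). Klf3 (ENSMUSG00000029178.14, chr5:64803388-64832901, plus strand) represses genes in erythroid and fat cells. It had 6.47, 6.49 and 6.37 in untreated libraries, and at 4 h 5.57, 5.39 and 5.26 in BMH-21 and 5.30, 5.56 and 5.42 in CX-5461. At 8 h it had 6.20, 5.80 and 6.11 in BMH-21 and 6.62, 6.58 and 6.64 in CX-5461. The inhibitors thus overlapped at 4 h and were apart at 8 h. That 8 h difference was -0.58 (limma adjusted p = 1.6e-06) as deposited, where the median gene differed by -0.48. It was -0.15 after centring (adjusted p = 0.0058) and -0.1 with median-ratio factors (adjusted p = 0.05, not called). At 8 h Klf3 was lower than in untreated cells by -0.41 in BMH-21 (adjusted p = 5e-04), or -0.05 (adjusted p = 0.33) with median-ratio factors. In CX-5461 it differed by 0.17 (adjusted p = 0.19), or -0.04 after centring.

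By 8 h of BMH-21, 5 of the 7 genes tested against untreated cells were lower (Klf3, Klf9, Klf11, Klf13 and Klf16) and 1 was higher (Klf7), where 56.9% of all genes were lower and 24.5% higher. The median of the 7 was -0.41 and that of all genes -0.40, and on the centred scale both were -0.19. After centring, 5 were lower and 2 higher (Klf7 and Klf10), where 51.3% of all genes were lower and 33.3% higher. With median-ratio factors 3 were lower and 2 higher, where 43.3% of all genes were lower and 39.2% higher. By 8 h of CX-5461, 1 was lower (Klf16) and 1 higher (Klf7), where 14.3% of all genes were lower and 35.1% higher. After centring 4 were lower (Klf10, Klf11, Klf13 and Klf16) and 1 higher (Klf7), where 44.7% of all genes were lower and 29.3% higher. The centred medians there were -0.18 for the 7 genes and -0.11 for all genes. The counts at 8 h are thus near the shares over all genes, and that of CX-5461 depends on the scaling.

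The change from 4 h to 8 h used no untreated library. In BMH-21, 6 of the 7 genes other than Klf6 and Klf15 rose and 1 (Klf16) fell by limma, where 18.6% of all genes rose and 37.8% fell. The same 6 rose after centring, where 28.3% of all genes rose and 42.2% fell, and with median-ratio factors, where 36.7% rose and 32.5% fell. The rise was 1.07 in Klf7 (SE 0.13, adjusted p = 3.2e-12) and 0.87 in Klf9 (SE 0.11, adjusted p = 4.3e-12). It was 0.68 in Klf11, 0.63 in Klf3, 0.47 in Klf10 and 0.45 in Klf13, with adjusted p-values up to 0.00028. In CX-5461, 7 of the 7 rose and 0 fell, where 58.8% of all genes rose and 4.85% fell and the median gene moved by 0.34. After centring 6 rose, all but Klf16, and 0 fell, where 25.8% of all genes rose and 32.0% fell. The largest rises in CX-5461 were those of Klf3 (1.19, adjusted p = 1.1e-17; 0.81 after centring) and Klf13 (1.16, adjusted p = 4.7e-17; 0.79 after centring). The 4 h libraries enter both the fall from untreated cells and this rise, so the rise is not separate from the low values at 4 h.

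**Figure D2:**
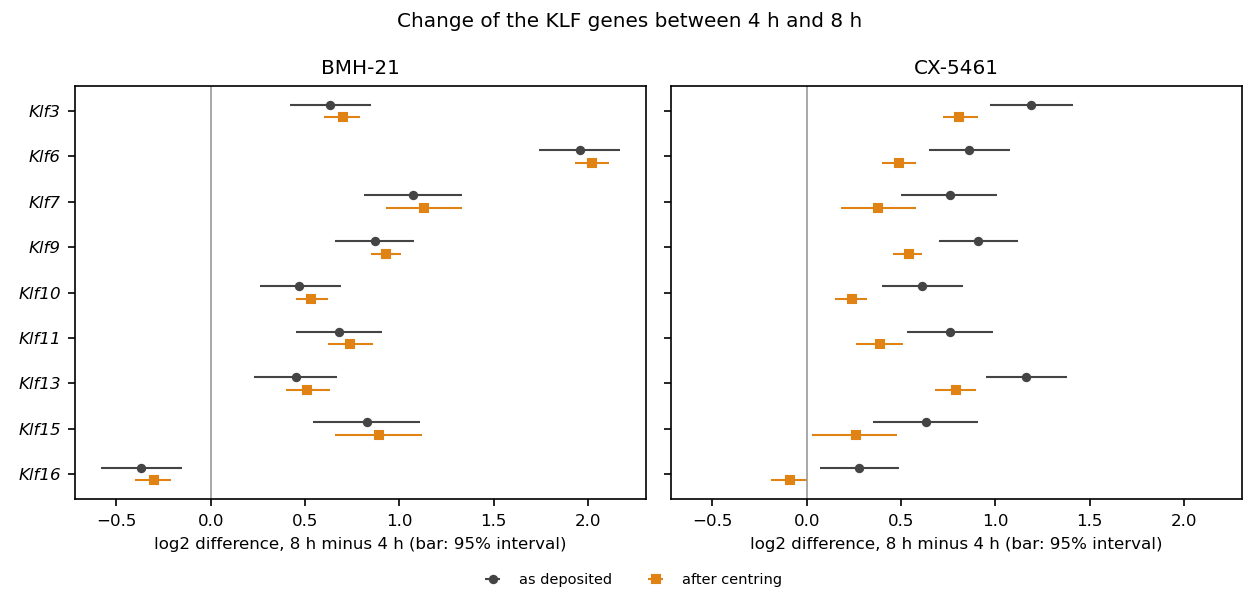
Log2 difference between 8 h and 4 h (horizontal axis) of each gene (vertical axis) in BMH-21 and in CX-5461, with 95% intervals as bars, circles for deposited values and squares after centring (3 libraries per group). In BMH-21 all genes but Klf16 lie right of 0 on both scales, with Klf6 at 1.96 furthest right, and in CX-5461 Klf16 changes sides from 0.28 to -0.09.

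Whether that late change differed between the inhibitors was tested as an interaction. Of the 7 genes other than Klf6 and Klf15, it was larger in BMH-21 for 0 and smaller for 3 (Klf3, Klf13 and Klf16), where 7.98% of all genes were larger and 61.4% smaller and the median gene differed by -0.52. After centring it was larger for 4 (Klf7, Klf9, Klf10 and Klf11) and smaller for 2 (Klf13 and Klf16), where 24.0% of all genes were larger and 36.2% smaller. With median-ratio factors it was larger for the same 4 and smaller for 0, where 30.3% of all genes were larger and 27.6% smaller. The calls thus depend on the scaling for all 7 genes.

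Comparing the inhibitors directly, BMH-21 libraries were lower than CX-5461 libraries at 4 h for 3 of the 7 genes tested (Klf9, Klf11 and Klf13) and higher for 0, where 8.49% of all genes were lower and 9.35% higher. The same 3 were lower and 0 higher after centring, where 18.5% of all genes were lower and 27.4% higher, and with median-ratio factors Klf16 was lower too, where 24.1% were lower and 17.6% higher. Klf9 was lower by -0.46 (limma adjusted p = 0.00064) and Klf11 by -0.54 (adjusted p = 0.00017), and after centring these were -0.46 and -0.55. Klf3, Klf7, Klf10 and Klf16 were not separated at 4 h, with intervals of -0.24 to 0.20, -0.42 to 0.09, -0.19 to 0.24 and -0.31 to 0.12. At 8 h BMH-21 was lower for 6 of 9 (Klf3, Klf9, Klf11, Klf13, Klf15 and Klf16) and higher for 1 (Klf6), where 67.2% of all genes were lower and 12.0% higher. After centring it was lower for 5 (the same without Klf9) and higher for 3 (Klf6, Klf7 and Klf10), where 40.6% of all genes were lower and 31.1% higher. Klf11, Klf13, Klf15 and Klf16 were called lower in BMH-21 at 8 h on the deposited, the centred and the median-ratio scale, and Klf6 was called higher on these 3 scales. The deposited call of Klf6 was lost in most fits that left out a single library.

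**Figure D3:**
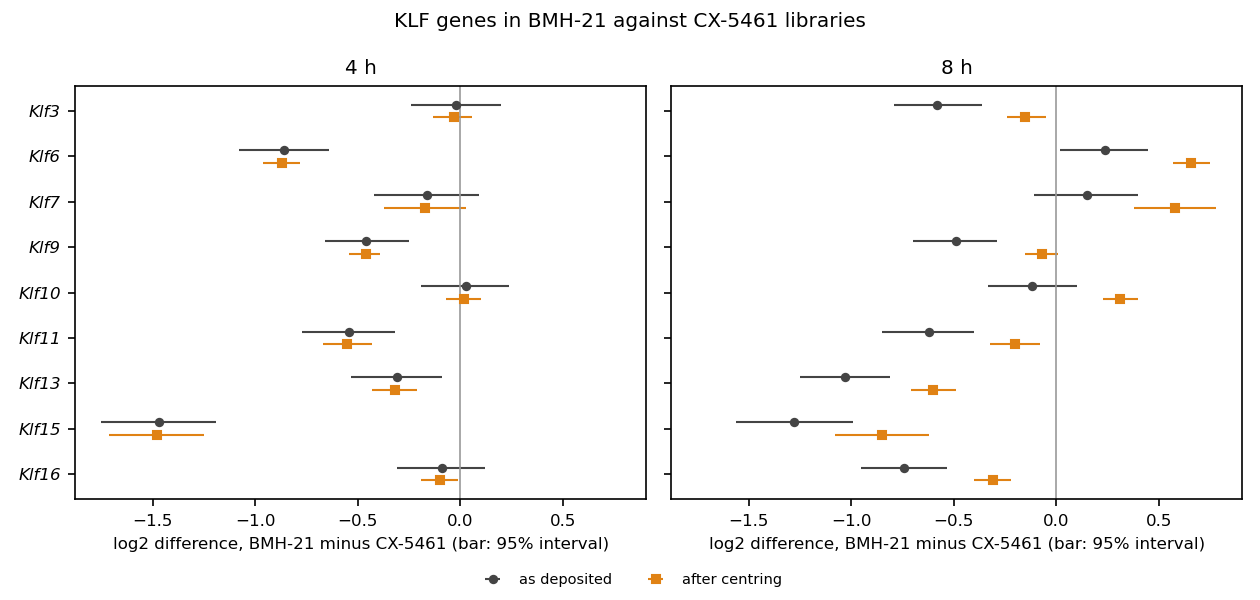
Log2 difference between BMH-21 and CX-5461 libraries (horizontal axis) of each gene (vertical axis) at 4 h and at 8 h, with 95% intervals as bars, circles for deposited values and squares after centring (3 libraries per group). At 4 h the scales coincide, with Klf15 at -1.47 furthest left, while at 8 h centring moves every gene to the right and Klf10 from -0.12 to 0.31.

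At 2 h, as a description, Klf15 and Klf6 were the lowest of the 9 genes in both inhibitors relative to untreated cells. Klf9 followed in both, at -0.47 in BMH-21 and -0.56 in CX-5461 (SE 0.11 each). Klf10 was at -0.09 in BMH-21 and -0.47 in CX-5461, with no overlap between the inhibitors (6.43, 6.65 and 6.57 against 6.25, 6.17 and 6.09). Klf11 stood at -0.33 and -0.54, Klf3 at -0.22 and -0.38, Klf7 at -0.17 and -0.50 and Klf13 at -0.06 and -0.29 in BMH-21 and CX-5461. Klf16 was the gene with positive values in both, 0.19 and 0.17. On the deposited scale, on which the median gene was higher in BMH-21 than in CX-5461 by 0.09 at 2 h, Klf15 was lower in BMH-21 and the other 8 genes were higher, but Klf3, Klf9, Klf13 and Klf16 overlapped between the inhibitors. Klf6 differed most in that direction, by 0.70 (SE 0.11; 0.63 after centring), and Klf16 was at -0.05 after centring.

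Within the set, some genes followed each other closely over the 21 libraries, which share treatments and scaling. Pearson's r was 0.95 for Klf11 and Klf13, 0.93 for Klf6 and Klf7 and 0.92 for Klf3 and Klf9. Klf16 ran against the activators, with r of -0.44 to Klf6 and -0.49 to Klf7. Among all genes tested, those most like Klf6 were Edn1, encoding the vasoactive peptide endothelin (r = 0.949), Samd12 (r = 0.935) and Klf7 (r = 0.935). Edn1 had 16 to 303 reads and Samd12 18 to 147 reads per library, so their values are imprecise. The genes most like Klf15 were Zcchc7, encoding an RNA-binding subunit of a nuclear surveillance complex (r = 0.970), Atf4, a transcription factor of the amino acid and stress response (r = 0.950), and Mtrr, a methionine synthase reductase (r = 0.947). Atf4 had group means of 7.42 in untreated, 5.72 in BMH-21 4 h and 6.23 in CX-5461 4 h libraries.

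Of the other 17 family members of the KLF and SP type, 14 passed the filter. Among these, 4 were higher and 6 lower at 4 h of BMH-21, where 22.1% of all genes were higher and 44.9% lower. At 8 h, 5 were higher and 8 lower, where 24.5% of all genes were higher and 56.9% lower. In CX-5461, 4 were higher and 7 lower at 4 h, where 19.8% of all genes were higher and 51.2% lower. At 8 h, 5 were higher and 3 lower, where 35.1% of all genes were higher and 14.3% lower. After centring these 8 h counts were 5 and 8, where 29.3% of all genes were higher and 44.7% lower. Their median log2 differences, -0.27 and -0.65 in BMH-21 and -0.27 and -0.07 in CX-5461, compare with -0.21, -0.40, -0.28 and 0.11 over all genes. The largest rise at 8 h was that of Sp9 in both inhibitors (3.46 in BMH-21 and 2.38 in CX-5461, from 15 to 23 reads per untreated library). The largest falls were those of Klf8 in BMH-21 (-2.36, adjusted p = 2e-39) and Sp4 in CX-5461 (-0.54, adjusted p = 8.5e-05). The pluripotency factor Klf2 was low at 4 h of both inhibitors and less so at 8 h, with -1.15, -1.96 and -1.07 against untreated cells over 2, 4 and 8 h of BMH-21 and -1.31, -1.06 and -0.14 over those of CX-5461. The centred 8 h values of Klf2 were -0.86 in BMH-21 and -0.35 in CX-5461. Klf4 instead continued down in BMH-21 (-0.47, -0.75 and -1.35) and stood at -0.50, -0.65 and -0.43 in CX-5461. Klf5 was at -0.19, -0.06 and 0.16 in BMH-21 and at -0.61, -0.01 and 0.24 in CX-5461.

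Of 10 cofactors that these proteins recruit (the CtBP, Sin3, histone deacetylase and acetyltransferase genes), 1 was higher and 7 lower at 4 h of BMH-21 and 0 higher and 9 lower at 8 h, where 22.1% and 24.5% of all genes were higher and 44.9% and 56.9% lower. Their median at 8 h was -0.76, against -0.40 over all genes. In CX-5461, 0 were higher and 8 lower at 4 h and 1 higher and 5 lower at 8 h, with a median of -0.22 against 0.11 over all genes, of which 19.8% and 35.1% were higher and 51.2% and 14.3% lower. Ctbp2, the partner of Klf3, fell most at 8 h of BMH-21 (-1.48, limma adjusted p = 4.9e-27). In CX-5461 at 8 h Hdac2 fell most (-0.47, adjusted p = 7e-05) and Sin3b, a partner of the Sin3-binding factors, was at 0.24 (adjusted p = 0.048), which was 0.03 after centring.

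The TGF-beta pathway, for which Klf10 and Klf11 are named as early genes, had 12 of 13 genes tested. In BMH-21, 6 were higher and 5 lower at 4 h, and 5 higher and 6 lower at 8 h, with medians of 0.21 and -0.22 against -0.21 and -0.40 over all genes. The shares of all genes called in each comparison are those given with the cofactors. In CX-5461, 6 were higher and 5 lower at 4 h, and 8 higher and 0 lower at 8 h. The medians were 0.39 and 0.42 against -0.28 and 0.11. Centring gave 7 higher and 4 lower at 8 h, where 29.3% of all genes were higher and 44.7% lower. At 8 h of BMH-21 the ligand gene Tgfb2 rose most (2.49, from 23 to 39 reads per untreated library) and Tgfb1 fell most (-2.50, limma adjusted p = 5.3e-39), and at 8 h of CX-5461 the receptor gene Tgfbr2 rose most (1.61, adjusted p = 1e-10). Of 9 genes of the glucocorticoid receptor and its common targets, a pathway that induces Klf9 and Klf15 elsewhere, 2 were higher and 5 lower at 4 h of BMH-21, and 4 higher and 3 lower at 8 h, with medians of -0.36 and 0.19. In CX-5461, 4 were higher and 3 lower at 4 h, and 5 higher and 2 lower at 8 h, with medians of 0.06 and 0.35. The medians over all genes are those given with the TGF-beta pathway. After centring, 6 were higher and 3 lower at 8 h of BMH-21, where 33.3% of all genes were higher and 51.3% lower. The centred median there was 0.41, against -0.19 over all genes. At 8 h of CX-5461 centring left 5 higher and 2 lower, with a median of 0.13 against -0.11. The receptor gene Nr3c1 rose most at 8 h of BMH-21 (1.51, adjusted p = 3.6e-24) and the phosphatase gene Dusp1 at 8 h of CX-5461 (1.41, adjusted p = 1.6e-22), while the kinase gene Sgk1 fell most in both (-1.69 and -0.74).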

How the data were processed

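The 21 libraries were poly(A) RNA made with a directional kit, per the labels' protocols. The submitters' processing notes name Trim Galore 0.5.0, TopHat2 2.1.1, R 4.0.5, DESeq2 1.30.1, edgeR 3.32.1, limma 3.46.0 and the mm10 build. The annotation and the strand setting of the counting are not given in the sources used here, so reads of overlapping or antisense genes may be included. The authors deposited 1 table of log2 expression values, normalized with voom per its name. Whole reads were recovered from these values, to within 1.7e-08, with an offset of 0.5 read, and no count model was used. Fold changes are on that log2 scale, which understates those of low genes. The origin of the deposited scaling factors is not given in the sources used here. Replicate pairs differed by a chi-square per degree of freedom of 2.58 to 26.01, so every library counted as 1 sample.

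Genes with a log2 value above 0 in at least 3 of 21 libraries (14666, with 6234 set aside) were fitted with limma 3.58.1 (R 4.3.3), with 1 mean per group, all libraries, a mean-variance trend, two-sided tests and Benjamini-Hochberg adjustment over all genes at 0.05. The variance prior had 111.5 degrees of freedom against 14 from the replicates (8.5 after centring). The design counted 73 tests of the 9 genes, of which those of Klf6 and Klf15 that use 4 h libraries are given without p-values, because the selection names their early fall. Alternatives were other filters, offsets, scalings (centring, median-ratio, quantile), variance models, voom weights, only the groups compared, a replicate block and leaving out each library.

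The genes and lists were chosen with earlier results of these data known. All 9 genes are named. Klf2, Klf4 and Klf5, the 3 genes with the highest r to Klf6 and to Klf15, and the largest rise and fall past the threshold per list at 8 h are named by rule. Gene positions and exon lengths are from GENCODE M21 (GRCm38, the assembly of mm10) and promoters from RefSeq (GRCm38.p6). Figures were drawn with matplotlib 3.10.9.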

Additional observations from a re-analysis of the deposited data

Results flagged for a closer look

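By the limma interaction test on deposited values, Klf3, Klf13 and Klf16 differed between the inhibitors in their late change. Values are BMH-21 minus CX-5461 for the change from 4 h to 8 h. Klf6 is listed beside them as a description with no test. For Klf6, whose p-value is not given because its selection used its early values, the difference was 1.09, with 1.96 in BMH-21 and 0.86 in CX-5461; the centred value was 1.53 and the median-ratio one 1.63. For Klf13 it was -0.71 (adjusted p = 4.1e-05), with rises of 0.45 and 1.16, and it was -0.28 (adjusted p = 0.0035) after centring and -0.17 (adjusted p = 0.056) with median-ratio factors. For Klf16 it was -0.65 (adjusted p = 0.00012), with a change of -0.37 in BMH-21 and 0.28 in CX-5461, and it was -0.21 (adjusted p = 0.0064) after centring and -0.11 (adjusted p = 0.15) with median-ratio factors. For Klf3 it was -0.56 (adjusted p = 0.0011), with rises of 0.63 and 1.19, and it was -0.12 (adjusted p = 0.12) after centring and -0.02 (adjusted p = 0.86) with median-ratio factors. The median gene of the table differed by -0.52 in this contrast on the deposited scale.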

How the results depend on the processing

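Over the 73 fits of the 9 genes fixed in the design, in which Klf6 and Klf15 are counted also where no p-value of theirs is printed, 949 values from 13 alternatives kept their direction and side of the threshold in 863 cases, lost the call in 22, gained it in 27 and changed sign in 37. All sign changes came from centring, median-ratio factors or quantile normalization, and 7 of the 37 were of called values. At 8 h of BMH-21 against untreated cells, Klf3 was 0.01 with quantile normalization, Klf9 was 0.05 with median-ratio factors and 0.24 with quantile normalization, and Klf10 was 0.13, 0.28 and 0.40 after centring, with median-ratio factors and with quantile normalization. At 4 h of CX-5461, Klf7 was 0.08 with median-ratio factors. At 8 h of CX-5461, centring gave -0.04 for Klf3, -0.03 for Klf9 and -0.18 for Klf10, and median-ratio factors -0.08 for Klf10. Between the inhibitors, Klf10 was -0.04 and -0.05 at 4 h with median-ratio factors and quantile normalization, and 0.31, 0.36 and 0.34 at 8 h after centring, with median-ratio factors and with quantile normalization. From 4 h to 8 h of CX-5461, Klf16 was -0.09, -0.09 and -0.06 in the same order. The difference between inhibitors in that change was, again in that order, 0.40, 0.50 and 0.49 for Klf9, 0.29, 0.40 and 0.39 for Klf10, and 0.36, 0.46 and 0.34 for Klf11. The number of genes called at 8 h of CX-5461 was 2 as deposited. It was 5 after centring, 4 with median-ratio factors, 5 with quantile normalization and 4 when only the groups compared were fitted. Of all genes tested, 35.1% were higher and 14.3% lower there as deposited, and 29.3% and 44.7% after centring. With median-ratio factors the shares were 35.2% and 35.3%. The cause of these changes between settings was not tested.

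Leaving out 1 library at a time, 460 of 492 values kept direction and call, 20 lost the call, 2 gained it and 10 changed sign, 0 of them called. The lone pairs of libraries left in a group were assumed to vary like the other groups. The range was -0.14 to 0.03 for Klf10 at 8 h of BMH-21, -0.02 to 0.07 for Klf10 at 8 h of CX-5461, -0.10 to 0.05 for Klf3 and -0.06 to 0.14 for Klf10 between inhibitors at 4 h, -0.15 to 0.05 for Klf9 and -0.18 to 0.00 for Klf11 in the difference of late changes, and 1 to 3 genes called at 8 h of CX-5461.

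Same-numbered libraries of different groups did not deviate together (correlations from -0.25 to 0.11 over 63 pairs, and 4 of 21 libraries correlated best with their own number), so the numbers do not pair the samples. With the replicate number as a block, 72 of 73 calls were as before and Klf6 between the inhibitors at 8 h had an adjusted p of 0.053 (0.24), which gave 6 genes called there instead of 7. Centring with the replicate block gave -0.18 for Klf10, -0.04 for Klf3 and -0.03 for Klf9 at 8 h of CX-5461. There 5 of the genes tested were called. With the same setting Klf10 was 0.13 at 8 h of BMH-21 and 0.31 between inhibitors at 8 h. Klf16 was -0.09 from 4 h to 8 h of CX-5461. In the difference of late changes Klf9, Klf10 and Klf11 were 0.40, 0.29 and 0.36. Klf7 and Klf15 had the fewest reads and the widest spread after centring (SD 0.124 and 0.139), and whether depth sets that spread was not tested.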
